A study of Dichomitus squalens with 16 samples.

Results

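The white-rot basidiomycete Dichomitus squalens carries 127 genes, of 11410 in the deposited tables, whose protein description names a lipase, an esterase or an alpha/beta-hydrolase. They were collected by those words, and by cutinase, in the Blast description that the authors gave each gene, leaving out phosphodiesterases, phosphoesterases, thioesterases and 1 further protein. The rule used words and no expression value. Strain LYAD-421 SS1 was grown as a submerged culture in a low-nitrogen asparagine and succinate medium, 100 ml with 1 g of plant material, and RNA was taken from the mycelium with its substrate. The plant material was sawdust of spruce (Picea abies), sawdust of aspen (Populus tremula), wheat bran powder or powder of cotton seed hulls, each sampled on day 9 and on day 16. The 8 groups held 2 libraries each, numbered as replicates and not stated to be separate cultures, so the p-values measure the spread between these libraries, which may be technical. All groups shared the strain, the medium and a preculture of 4 days at 28 °C with 6.8 mM glycerol, and no culture without plant material was analysed here.

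Lipases split triacylglycerols into fatty acids and glycerol, phospholipases cut membrane phospholipids, and esterases take acyl groups off many other alcohols, among them the acetyl and feruloyl groups that decorate plant xylan and pectin. Most of these enzymes, together with serine carboxypeptidases and epoxide hydrolases, share the alpha/beta-hydrolase fold, in which a nucleophile, often a serine, and its partners sit on loops of a common sheet. Wood carries fats, waxes and sterol esters among its extractives, and bran and seed hulls bring the lipids of grain and seed coats. A wood-decaying fungus also uses such enzymes inside the cell, to turn over its own lipids and to remodel membranes.

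The descriptions divided the 127 members into 86 named only as alpha/beta-hydrolase, 15 phospholipases, 14 lipases, 6 esterases of plant cell wall polymers, 4 other esterases and 2 carboxylesterases, and none was called a cutinase. The KEGG names deposited beside the descriptions gave triacylglycerol lipase for 33 members, a general esterase or lipase for 17, a phospholipase for 12, a carboxypeptidase for 10 and an epoxide hydrolase for 7, and another name or no name for 48. The label is therefore wider than fat breakdown. It takes in the phospholipase A-2-activating protein, whose yeast counterpart works in the ubiquitin system, a protein phosphatase methylesterase, a phospholipase D/nuclease that KEGG calls a tyrosyl-DNA phosphodiesterase, and a calcium-dependent phosphotriesterase that KEGG calls gluconolactonase. For 2 abundant members, DICSQDRAFT_71343 and DICSQDRAFT_83088, the KEGG text names an actin-related protein complex subunit, which is no hydrolase, and the Blast description was kept.

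The median library held 8483361 reads on genes, and the deepest held 1.11 times the reads of the shallowest. Levels are given below for each library as RPKM, read counts divided by gene model length and by library size, while fold changes are log2 values from edgeR's quasi-likelihood test on read counts scaled by the trimmed mean of M values, with Benjamini-Hochberg adjustment over 10584 genes and a threshold of 0.05. The scaling factors ran from 0.702 to 1.22, so a fold change can differ from the ratio of RPKM values. RPKM is a share of the library, and bulk RNA cannot tell fewer hyphae expressing a gene from less RNA per hypha. Day 9 wood libraries of the same group lay furthest apart: the median absolute log2 ratio between members' values in the 2 libraries was 0.22 on spruce and 0.22 on aspen, against 0.11 to 0.164 in the other 6 groups. Of the members, 120 passed the filter on low counts; the other 7 had 18 to 82 reads over the 16 libraries and were not tested.

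The members were mostly well expressed and varied widely. The median of the highest group mean was 39.4 RPKM over the 120 tested members and 28.2 RPKM over all genes tested, and 28 members reached 100 RPKM in some group. A range of 10-fold or more between the highest and lowest group, after adding 0.1 RPKM, was found for 26 of 120 members (21.7%) and for 9.94% of all genes tested. Aspen on day 16 was the highest group for 21.7% of tested members and 16.8% of all genes tested, spruce on day 9 for 19.2% and 26.8%, spruce on day 16 for 18.3% and 20.2% and cotton seed hulls on day 16 for 9.17% and 4.37%. Together the 127 genes summed to 4047 ± 342 RPKM (mean ± SD, 2 libraries) on spruce and 3826 ± 325 on aspen on day 9, below 5920.4 ± 161 with wheat bran and 6126 ± 102 with cotton seed hulls. On day 16 the sums were 5363 ± 22.4, 5703 ± 92.5, 6326 ± 52.8 and 5538 ± 9.08 in the same order. Lower sums on day 9 wood were seen in the lipases, at 498 ± 23.9 on spruce and 433 ± 23.4 on aspen but 1581 ± 61.6 with wheat bran and 1396 ± 41.5 with cotton seed hulls. The sum of the genes named only as alpha/beta-hydrolase was lower there too, at 2662 ± 343 and 2610.3 ± 236 against 3530.0 ± 81.1 and 3788 ± 14.01 in the same order. DICSQDRAFT_49593 alone held 16.7% of the wheat bran sum and 20.4% of the cotton seed hulls sum. It stood at 589 and 773 RPKM there and at 67.8 and 127 on spruce and aspen. DICSQDRAFT_65706 and DICSQDRAFT_83088, given below, were also far higher on bran and hulls. This sum follows its most abundant genes and does not give the direction of most genes in the class. Sums of the cell wall esterases and of the other esterases were also lower on day 9 wood. In the cell wall class, DICSQDRAFT_142470 held 60.8% of the sum on day 9 spruce and 73.2% on day 9 aspen. Its KEGG name, given below, is that of a different enzyme. Phospholipases ran the other way, from 610.1 ± 2.53 on day 9 spruce to 337 ± 2.43 on day 16 cotton seed hulls. The largest part of the day 9 spruce sum, 25.7%, was DICSQDRAFT_98029, the phospholipase A-2-activating protein. On day 9 aspen it was DICSQDRAFT_161260, a phospholipase D/nuclease, with 22.3%. All these sums are RPKM, without the scaling used for fold changes. Leaving that scaling out moved the median of all genes toward wood, by 0.28 log2 on day 9 and 0.48 on day 16.

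**Figure D1:**
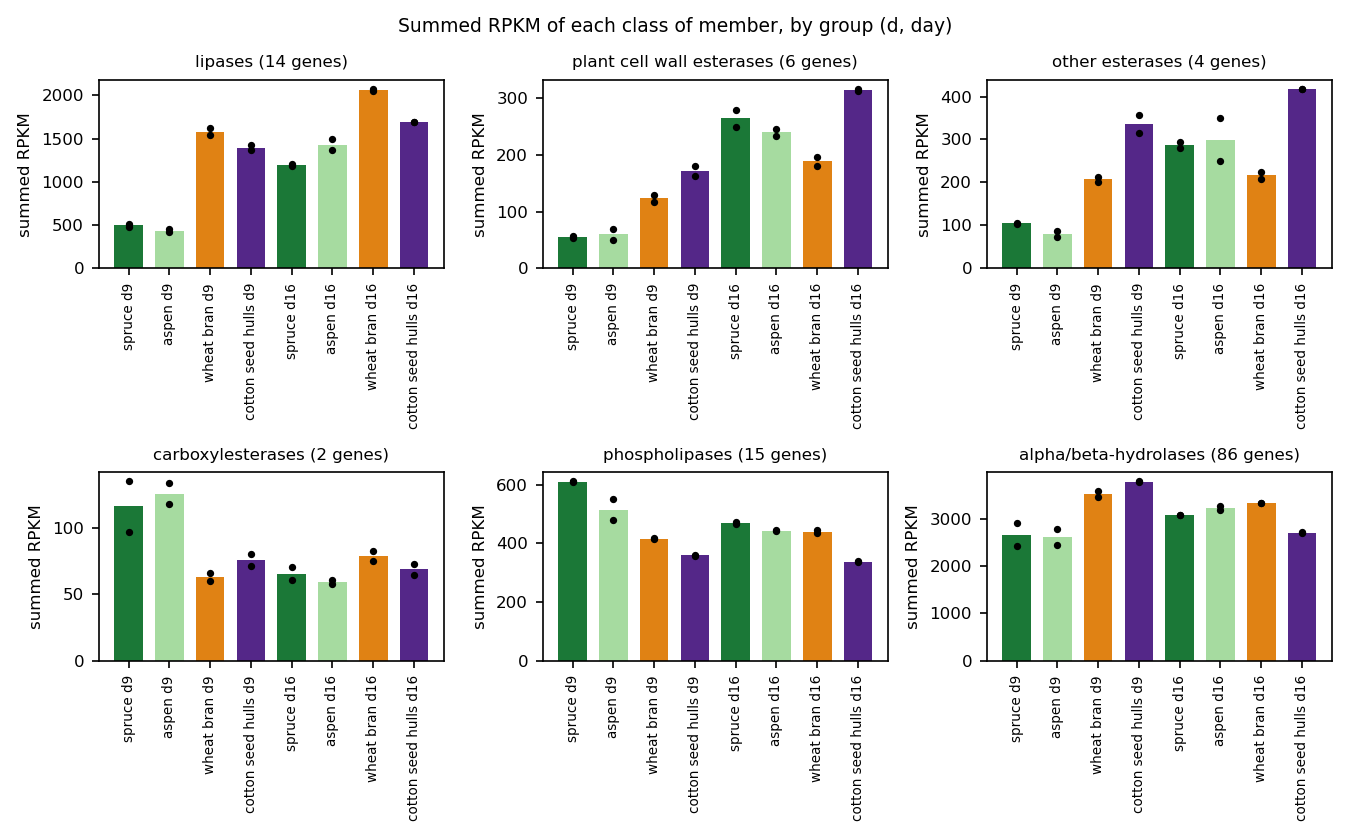
Summed RPKM (vertical axes, from 0) of the members in each of the 6 classes, by substrate and day (horizontal axes); bars are means of 2 libraries and points are the libraries. In these unscaled sums lipases and cell wall esterases are lowest on day 9 wood, and the class named phospholipases is highest there. That class takes in the phospholipase A-2-activating protein and the phospholipase D/nucleases.

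Among the 14 lipases, 3 were higher and 9 lower on wood than on the non-woody substrates on day 9, with a median log2 fold change of -0.62, against 37.4% higher and 34.1% lower and a median of 0.03 over all genes tested. On day 16 the lipases stood at 3 higher and 7 lower, median -0.38, against 29.7% and 30.0% and a median of 0.03 over all genes. With library size as the only scaling the counts were 4 higher and 7 lower on day 9 and 6 and 5 on day 16, where the median turned to 0.10, so the day 16 direction of the class depends on the scaling. Under that scaling the 10584 genes tested gave 5381 higher and 2455 lower on day 9 and 7036 and 1136 on day 16. The most abundant member of all was the lipase DICSQDRAFT_71343. Its day 9 values were 148 and 168 RPKM with spruce, 136 and 113 with aspen, 824 and 812 with wheat bran and 612 and 575 with cotton seed hulls. By day 16 they were 319 and 334 RPKM with spruce, 464 and 487 with aspen, 1020.1 and 1024 with wheat bran and 672 and 668 with cotton seed hulls. Both wood groups lay below every non-woody library on both days, and both rose with time: the log2 fold change for wood against non-woody substrates was -2.59 (SE 0.07, adjusted p = 2.36e-15) on day 9 and -1.55 (SE 0.06, adjusted p = 1.94e-12) on day 16.

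The extracellular triacylglycerol lipase precursor DICSQDRAFT_137620, an enzyme that by its name is secreted to act on fat outside the cell, differed most between wood and the other substrates among the lipases on day 9. On day 9 it was measured at 18.8 and 9.995 RPKM with spruce, 7.88 and 7.04 with aspen, 378 and 325 with wheat bran and 164 and 163 with cotton seed hulls. A week later the values were 111 and 132 RPKM with spruce, 259.5 and 298 with aspen, 432 and 436 with wheat bran and 245 and 255 with cotton seed hulls. The day 9 wood libraries all stayed under 20 RPKM and far below every non-woody library. In RPKM, both day 16 aspen libraries lay above both cotton seed hulls libraries. That order may not hold on the scale of the fold changes. Leaving out their scaling moved the median of all genes by 0.48 toward wood on day 16, and aspen against cotton seed hulls was not tested. The day effect was 5.08 (SE 0.23, adjusted p = 1.01e-09) on aspen and 3.06 (SE 0.21, adjusted p = 9.7e-08) on spruce, against 0.32 (SE 0.18, adjusted p = 0.275) on wheat bran, which did not pass, and 0.86 (SE 0.18, adjusted p = 0.00339) on cotton seed hulls. Spruce and aspen differed on day 16, at -1.29 (SE 0.18, adjusted p = 0.0003) for spruce against aspen.

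A second lipase, DICSQDRAFT_174841, lies directly beside the most abundant one in the RefSeq gene order, and the Pearson correlation of their log2(RPKM + 1) values over the 16 libraries was 0.718. It stayed under 10 RPKM in every group except 1. It was measured on day 9 at 2.87 and 0.639 RPKM with spruce, 3.31 and 2.03 with aspen, 5.49 and 3.20 with wheat bran and 6.68 and 3.83 with cotton seed hulls. Day 16 gave 1.97 and 3.64 RPKM with spruce, 5.18 and 5.42 with aspen, 42.01 and 36.6 with wheat bran and 7.04 and 8.94 with cotton seed hulls. Wheat bran on day 16 stood apart from the other 14 libraries, and the rise there was 3.19 (SE 0.33, adjusted p = 1.86e-05). Against cotton seed hulls on that day the difference was 1.82 (SE 0.30, adjusted p = 0.000434). DICSQDRAFT_156325, named a carotenoid ester lipase after enzymes known from the mushroom Pleurotus that split pigment esters, rose with time on all 4 substrates. Its log2 day effects were 1.83 on spruce, 2.21 on aspen, 1.45 with wheat bran and 1.36 with cotton seed hulls, and its highest mean was 184 ± 1.97 RPKM (SD) on day 16 cotton seed hulls. A lipase went the other way: the triacylglycerol lipase DICSQDRAFT_95190 had means of 48.5 and 56.2 RPKM on day 9 spruce and aspen against 15.4 with wheat bran and 36.1 with cotton seed hulls, a log2 fold change of 0.87 (SE 0.11, adjusted p = 3.77e-06) for wood.

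Among the steepest rises on wood were those of a pair of genes separated by a single gene in the RefSeq order, the carotenoid ester lipase precursor DICSQDRAFT_106562 and the alpha/beta-hydrolase DICSQDRAFT_136894, which KEGG also names a triacylglycerol lipase. On day 9 DICSQDRAFT_106562 was measured at 12.1 and 6.89 RPKM with spruce, 10.7 and 7.76 with aspen, 111 and 106 with wheat bran and 167 and 170.0 with cotton seed hulls. Its day 16 values were 285 and 279 RPKM with spruce, 268 and 353 with aspen, 141 and 139 with wheat bran and 274 and 261 with cotton seed hulls. DICSQDRAFT_136894 stood at 7.26 and 5.07 RPKM with spruce, 4.21 and 3.61 with aspen, 70.9 and 70.7 with wheat bran and 83.9 and 78.2 with cotton seed hulls on day 9. It had 124 and 117 RPKM with spruce, 136 and 150.2 with aspen, 72.8 and 72.8 with wheat bran and 104 and 103 with cotton seed hulls on day 16. In both genes all 4 day 9 wood libraries lay below every other library. On day 16 wood had reached or passed the non-woody levels in RPKM. RPKM lacks the scaling of the fold changes, and leaving it out moved the median of all genes by 0.48 toward wood on day 16. The order against cotton seed hulls may therefore not hold on that scale, and each wood against hulls alone was not tested. The day effects of DICSQDRAFT_106562 were 4.87 on spruce and 4.94 on aspen, compared with 0.38 on wheat bran, the last not past the threshold, and 0.92 (SE 0.18, adjusted p = 0.00186) on cotton seed hulls. Those of DICSQDRAFT_136894 were 4.27 and 5.06 on the woods against 0.05 on wheat bran, again not past it, and 0.60 (SE 0.10, adjusted p = 0.000288) on cotton seed hulls. Across the 16 libraries their log2(RPKM + 1) values had a Pearson correlation of 0.992, a description over libraries that share depth and substrate.

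**Figure D2:**
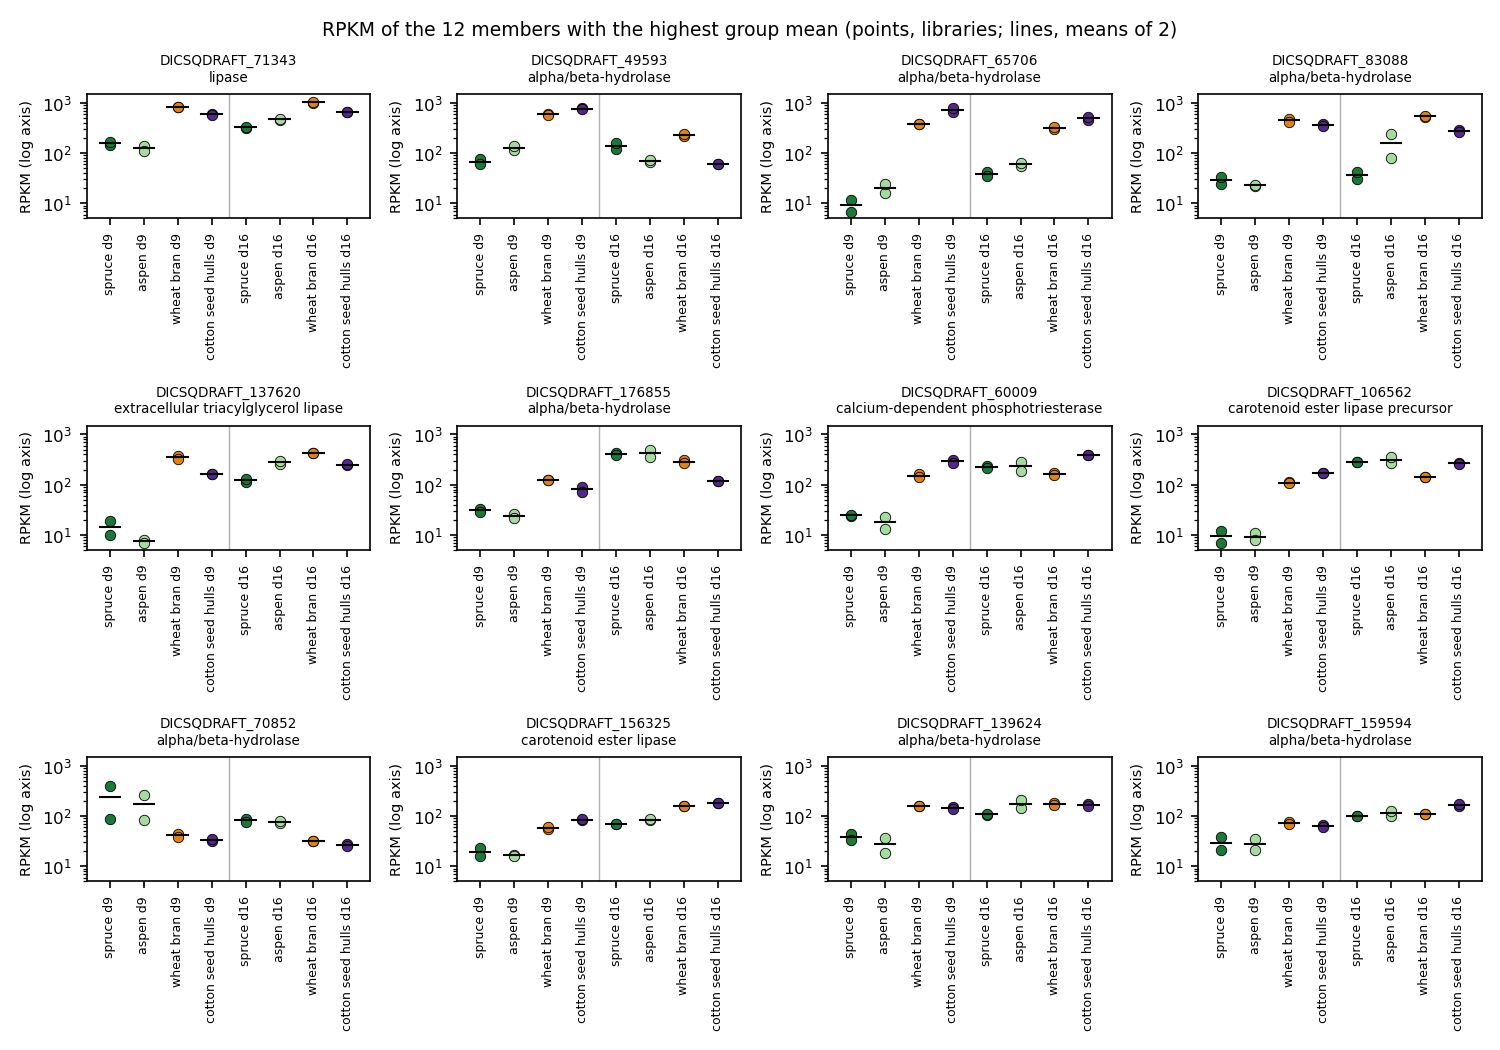
RPKM on a log axis (vertical, the same range in all panels) of the 12 members with the highest group mean, by substrate and day; points are the 2 libraries of a group and short lines their mean. Wood libraries of day 9 lie lowest in most panels, while DICSQDRAFT_70852 is highest there with its libraries far apart.

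The 6 esterases of plant cell wall polymers fell into 2 kinds. The 3 genes described as carboxylesterases from a carbohydrate esterase family, a class whose members take acetyl groups off xylan or pectin, were low on day 9 wood. DICSQDRAFT_163177 was measured there at 6.08 and 5.32 RPKM on spruce and 2.76 and 2.58 on aspen, with 49.1 and 40.8 with wheat bran and 62.998 and 53.7 with cotton seed hulls. On day 16 it stood at 131 and 114 RPKM with spruce, 106 and 110.0 with aspen, 82.7 and 75.1 with wheat bran and 118 and 118 with cotton seed hulls. DICSQDRAFT_157081 went from 3.06 and 2.86 RPKM to 85.4 and 80.5 on spruce and from 2.73 and 1.45 to 58.2 and 64.9 on aspen. These were among the largest day effects of the members: 5.20 (SE 0.14, adjusted p = 1.54e-13) for DICSQDRAFT_163177 on aspen and 4.79 (SE 0.15, adjusted p = 6.26e-13) for DICSQDRAFT_157081 on spruce. The third, DICSQDRAFT_157086, lies 1 gene away from DICSQDRAFT_163177. It reached only 19.1 and 29.7 RPKM on day 16 spruce and aspen, against 105 on cotton seed hulls, and remained lower on wood at -1.98 (SE 0.09, adjusted p = 1.01e-11).

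The other 3 did not share this pattern. Of the feruloyl esterase-like genes, whose namesakes free ferulic acid from xylan, DICSQDRAFT_52596 was higher on day 16 wood, at 9.89 and 12.5 RPKM on spruce and 10.5 and 9.64 on aspen, compared with 5.49 and 5.83 with wheat bran and 1.99 and 1.59 with cotton seed hulls, a log2 fold change of 1.25 (SE 0.16, adjusted p = 2.73e-06). DICSQDRAFT_52624 stayed under 5 RPKM in every library. DICSQDRAFT_142470, described as carbohydrate esterase family 1 but named by KEGG as S-formylglutathione hydrolase, an enzyme of formaldehyde detoxification, was higher on wood on day 9 at 0.86 (SE 0.10, adjusted p = 1.16e-06), with group means from 15.5 RPKM on day 9 wheat bran to 44.2 on day 9 aspen. Over the 6 genes, 4 rose and 0 fell from day 9 to day 16 on spruce, where 23.6% of all genes tested rose and 27.0% fell, and 4 rose and 1 fell on aspen, against 31.5% and 32.1%. On wheat bran 3 rose and 0 fell, against 9.13% and 8.16% of all genes, and on cotton seed hulls 3 and 0, against 15.7% and 12.7%. Of 8 xylan and pectin backbone enzymes elsewhere in the genome, named for xylanase, xylosidase, polygalacturonase or pectin lyase, 7 were lower and 0 higher on wood on day 9, and all 8 rose by day 16 on spruce and 7 on aspen. On wood on day 9, 34.1% of all genes tested were lower and 37.4% higher. With library size alone, 5 of these 8 enzymes were lower on day 9 and 7 rose on each wood. Of the 10584 genes tested, 2455 were then lower and 5381 higher on day 9 wood. By day 16, 2540 rose on spruce and 4020 on aspen.

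Esterases outside these classes gave the same early gap on wood in 1 abundant case. DICSQDRAFT_60009, the calcium-dependent phosphotriesterase with the KEGG name of gluconolactonase, an enzyme that opens sugar lactones, was measured on day 9 at 24.002 and 25.3 RPKM with spruce, 22.4 and 13.4 with aspen, 159.6 and 144 with wheat bran and 313 and 271 with cotton seed hulls. Day 16 values were 236 and 214 RPKM with spruce, 285 and 187 with aspen, 173 and 157 with wheat bran and 386 and 382 with cotton seed hulls. Day 9 wood lay lowest, and cotton seed hulls were highest on both days. The fold change for wood was -3.61 (SE 0.15, adjusted p = 5.24e-10) on day 9 and -0.61 (SE 0.13, adjusted p = 0.00176) on day 16. The GDSL lipase/acylhydrolase DICSQDRAFT_172108, of a family with a serine in a short GDSL motif, had day 9 means of 8.53 ± 0.198 RPKM (SD) on spruce, 11.7 ± 1.84 on aspen, 44.6 ± 5.63 with wheat bran and 133 ± 6.82 with cotton seed hulls. It rose to 119 ± 12.7 on spruce, a day effect of 3.78 (SE 0.15, adjusted p = 5.68e-12). The 2 carboxylesterases moved apart: DICSQDRAFT_163706 was lower on wood on day 9 at -1.41 (SE 0.08, adjusted p = 6.7e-11). DICSQDRAFT_81835, named here to complete the class, was higher at 1.11 (SE 0.15, adjusted p = 3.85e-05).

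Of the 13 phospholipases tested, 8 were higher and 3 lower on wood on day 9 (61.5% and 23.1%, against 37.4% and 34.1% of all genes tested), with a median log2 fold change of 0.28. On day 16, 6 were higher and 3 lower (46.2% and 23.1%, against 29.7% and 30.0%), with a median of 0.21. With library size alone the counts were 9 and 3, then 9 and 1. The 10584 genes tested then split 5381 and 2455 on day 9 and 7036 and 1136 on day 16. DICSQDRAFT_90678, a Phospholipase/carboxylesterase that KEGG calls lysophospholipase II, which takes the remaining acyl chain off lysophospholipids, was measured on day 9 at 51.6 and 65.1 RPKM with spruce, 44.2 and 32.4 with aspen, 10.5 and 9.25 with wheat bran and 4.19 and 3.84 with cotton seed hulls. Its day 16 values were 16.6 and 16.4 RPKM with spruce, 10.9 and 9.48 with aspen, 7.13 and 6.09 with wheat bran and 3.29 and 3.79 with cotton seed hulls. The 4 day 9 wood libraries were the highest, and the gene fell by day 16 on spruce at -1.83 (SE 0.15, adjusted p = 3.27e-08) and on aspen at -2.05 (SE 0.16, adjusted p = 8.92e-09). Another 3 genes had their highest group means on day 9 wood. The N-acyl-phosphatidylethanolamine-hydrolyzing phospholipase D DICSQDRAFT_87478 had day 9 means of 26.7 RPKM on spruce and 34.99 on aspen and 6.59 to 12.9 in the other 6 groups. It fell on aspen at -1.67 (SE 0.27, adjusted p = 0.000205). It fell on spruce at -1.06 (SE 0.27, adjusted p = 0.00677), but without spruce day 9 replicate 1 the spruce value was -0.66 and did not pass (adjusted p = 0.0631). The FabD/lysophospholipase-like protein DICSQDRAFT_180598 had 33.9 and 20.9, and was 1.88 higher on the log2 scale on wood. A phospholipase D/nuclease, DICSQDRAFT_161260, chosen for mention after its values were seen, had 127 and 115. It fell by day 16 on spruce at -0.93 (SE 0.08, adjusted p = 3.59e-08) and on aspen at -0.97 (SE 0.08, adjusted p = 9.16e-09). KEGG calls a member with this description a tyrosyl-DNA phosphodiesterase, as given above, and whether DICSQDRAFT_161260 acts on phospholipids was not tested.

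The phospholipase A-2-activating protein DICSQDRAFT_98029, also chosen after its values were seen, had the highest level in the class, 157 ± 14.7 RPKM (SD) on day 9 spruce, and its other group means ran from 53.6 on day 16 cotton seed hulls to 138 on day 16 wheat bran. DICSQDRAFT_14009, described as a phospholipase C/P1 nuclease, was highest on cotton seed hulls, at 97.7 RPKM on day 9 and 115 on day 16, and differed from wheat bran on day 16 at -1.50 (SE 0.13, adjusted p = 1.93e-07). DICSQDRAFT_92697, a phospholipase D, rose on wheat bran from 6.04 and 5.18 to 21.05 and 17.3 RPKM, at 1.79 (SE 0.17, adjusted p = 8.06e-06). The lysophospholipase DICSQDRAFT_109841 fell on wheat bran at -0.81 (SE 0.22, adjusted p = 0.0292), a call lost when any of the 4 wheat bran libraries was left out (adjusted p from 0.102 to 0.155).

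Several alpha/beta-hydrolases without a closer name were far lower on wood than on bran or hulls. DICSQDRAFT_65706, with the KEGG name carboxypeptidase, gave the largest difference of any tested member on day 9, when it was measured at 6.85 and 11.7 RPKM with spruce, 16.2 and 24.5 with aspen, 373 and 384 with wheat bran and 665 and 785 with cotton seed hulls. On day 16 it stood at 43.000 and 35.1 RPKM with spruce, 55.8 and 63.9 with aspen, 304 and 335 with wheat bran and 462 and 521 with cotton seed hulls. Every wood library lay below every non-woody library on both days, at -5.53 (SE 0.19, adjusted p = 1.82e-10) on day 9 and -3.52 (SE 0.17, adjusted p = 8.75e-09) on day 16. DICSQDRAFT_83088 was measured on day 9 at 24.6 and 32.998 RPKM with spruce, 22.5 and 23.6 with aspen, 477 and 419 with wheat bran and 376 and 346 with cotton seed hulls. On day 16 it had 30.6 and 41.6 RPKM with spruce, 78.7 and 237 with aspen, 531 and 553 with wheat bran and 285 and 267 with cotton seed hulls. The 2 aspen libraries of day 16 were far apart, and the fold change for wood was -4.24 (SE 0.33, adjusted p = 2.61e-06) on day 9 and -2.84 (SE 0.31, adjusted p = 4.37e-05) on day 16. DICSQDRAFT_176855, a triacylglycerol lipase by its KEGG name, rose on wood from 32.3 and 28.9 RPKM to 431 and 391 on spruce and from 25.6 and 21.5 to 501 and 349 on aspen, and in all 4 day 16 wood libraries it stood above every non-woody library. Its wood difference turned from -2.17 (SE 0.11, adjusted p = 4.32e-11) on day 9 to 0.69 (SE 0.10, adjusted p = 1.82e-05) on day 16. Also named triacylglycerol lipase by KEGG, DICSQDRAFT_139624 had day 9 means of 38.8 ± 8.58 RPKM (SD) on spruce and 28.1 ± 13.2 on aspen against 162 ± 0.149 with wheat bran and 146 ± 6.37 with cotton seed hulls. It rose on both woods, at 1.49 (SE 0.26, adjusted p = 0.000874) on spruce and 2.54 (SE 0.27, adjusted p = 1.55e-05) on aspen. DICSQDRAFT_159594, with the same KEGG name, went from 29.8 ± 11.9 to 99.6 ± 0.466 RPKM on spruce and from 28.1 ± 9.76 to 114 ± 16.7 on aspen. It rose on cotton seed hulls from 63.4 ± 3.09 to 167 ± 6.71, at 1.65 (SE 0.28, adjusted p = 0.00181).

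A second set of alpha/beta-hydrolases was found mainly on wood. DICSQDRAFT_104823, a soluble epoxide hydrolase by KEGG, which would open epoxides to diols, was measured on day 9 at 35.6 and 50.8 RPKM with spruce, 77.99 and 96.3 with aspen, 2.30 and 1.77 with wheat bran and 1.53 and 0.919 with cotton seed hulls. Its day 16 values were 60.3 and 64.02 RPKM with spruce, 23.1 and 20.5 with aspen, 1.34 and 1.92 with wheat bran and 1.55 and 1.25 with cotton seed hulls. It was under 3 RPKM on both non-woody substrates and gave the largest excess on wood of any tested member, at 4.99 (SE 0.18, adjusted p = 4.68e-13) on day 9 and 4.12 (SE 0.19, adjusted p = 2.78e-11) on day 16. DICSQDRAFT_110240, a carboxypeptidase D by KEGG, of a family that trims residues from the C-terminus of proteins, was measured at 129 and 111 RPKM with spruce, 132 and 165 with aspen, 9.61 and 9.48 with wheat bran and 9.58 and 9.68 with cotton seed hulls on day 9. On day 16 it had 84.2 and 89.4 RPKM with spruce, 46.6 and 36.7 with aspen, 4.88 and 5.52 with wheat bran and 5.47 and 6.15 with cotton seed hulls. All wood libraries lay above all non-woody ones, at 3.53 (SE 0.10, adjusted p = 1.51e-14) and 2.96 (SE 0.11, adjusted p = 7.87e-13). Aspen exceeded spruce on day 9 in both genes and fell below it by day 16: spruce against aspen was -1.23 then 1.42 for DICSQDRAFT_104823 and -0.53 then 0.97 for DICSQDRAFT_110240, all 4 past the threshold.

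Other members were high on day 9 wood, and some of them were no longer in excess on day 16. DICSQDRAFT_88408, an esterase or lipase by KEGG, was measured on day 9 at 157 and 115 RPKM with spruce, 163 and 140.3 with aspen, 21.6 and 19.8 with wheat bran and 15.6 and 14.5 with cotton seed hulls. On day 16 it had 26.7 and 18.2 RPKM with spruce, 18.9 and 22.6 with aspen, 13.9 and 12.99 with wheat bran and 11.9 and 11.04 with cotton seed hulls. It lost its wood excess between the days, from 2.75 (SE 0.12, adjusted p = 1.52e-11) to 0.32 (SE 0.14, adjusted p = 0.0627). DICSQDRAFT_86378 did the same from a lower level, with day 9 means of 13.8 RPKM on spruce and 14.7 on aspen and at most 2.20 in any other group. DICSQDRAFT_183237 fell on spruce from 97.5 to 44.9 RPKM and on aspen from 93.4 to 33.96, and rose on wheat bran from 17.9 to 36.98, each past the threshold. DICSQDRAFT_70852 was the highest member on day 9 wood by its mean, but its libraries were 391 and 85.95 RPKM on spruce and 259 and 84.1 on aspen. Its wood excess was 2.15 (SE 0.49, adjusted p = 0.00366) on day 9, and the fall by day 16 did not pass on spruce at -1.52 (SE 0.66, adjusted p = 0.0858) or on aspen at -1.28 (SE 0.66, adjusted p = 0.122). DICSQDRAFT_61612 had the same spread, 82.1 and 23.7 RPKM on day 9 spruce and 114 and 37.2 on aspen, and kept its excess on day 16 at 2.23 (SE 0.52, adjusted p = 0.00531).

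**Figure D3:**
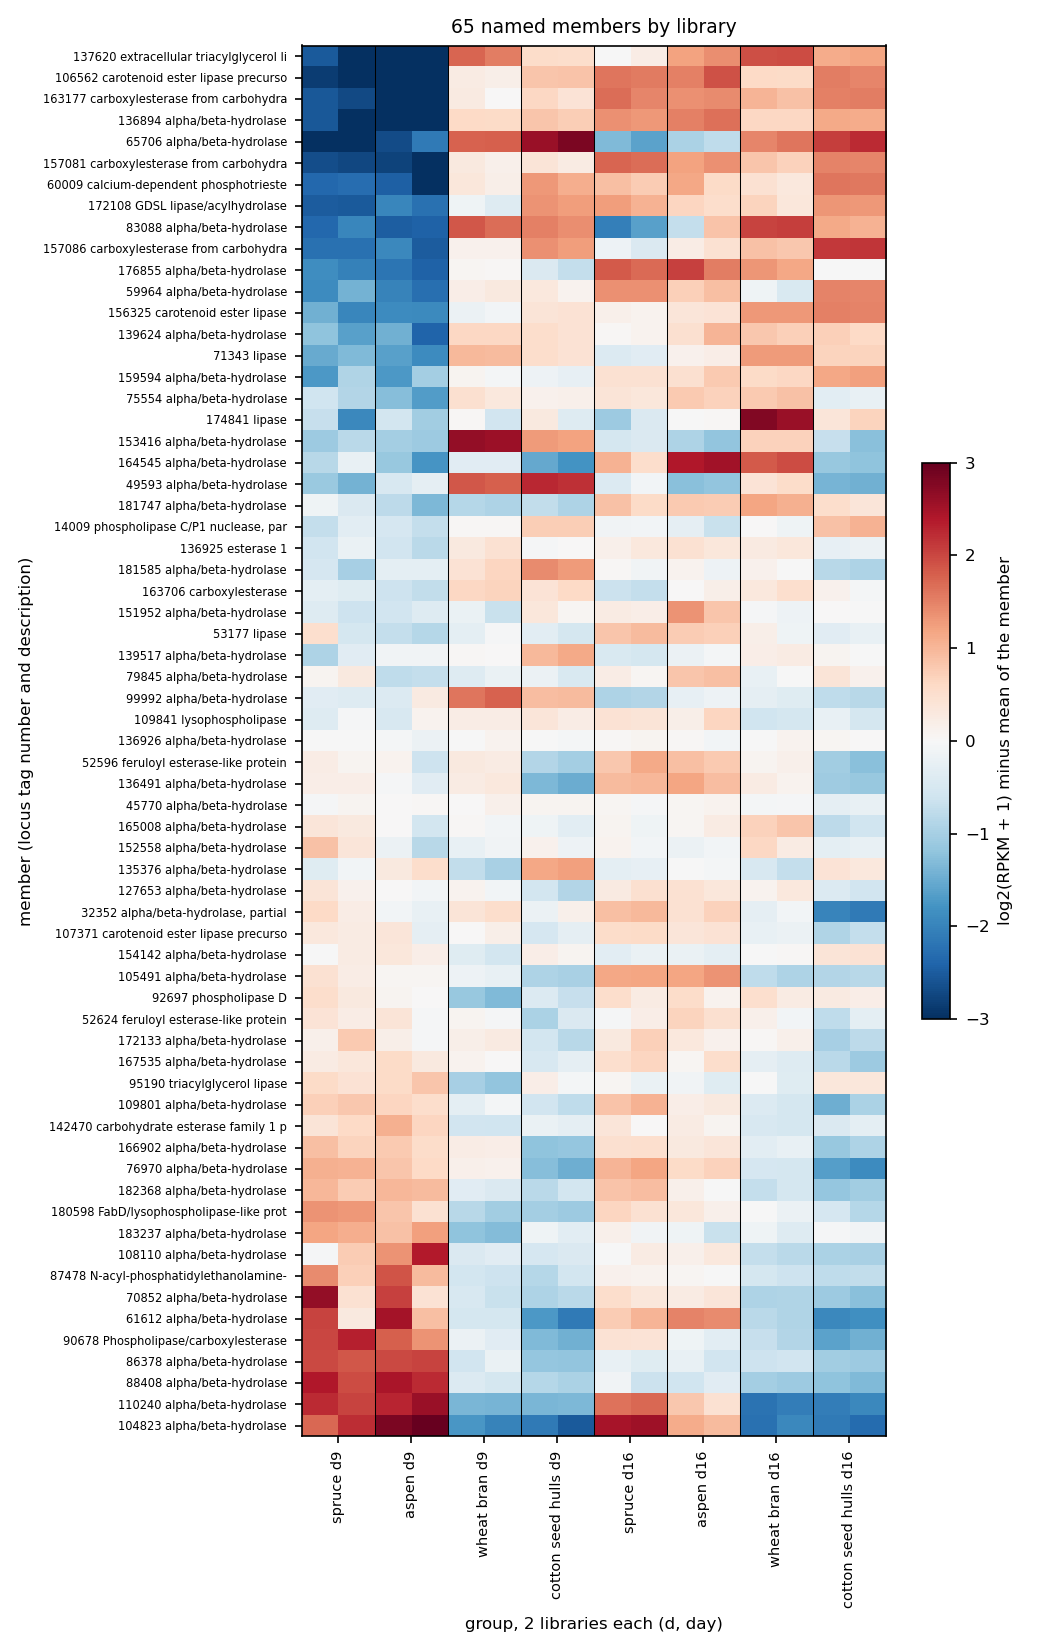
Colour shows log2(RPKM + 1) minus the mean of each member over 16 libraries, for the 65 named members that were tested (rows, ordered by their mean on day 9 wood) in the 2 libraries of each group (columns); red is above and blue below the mean, with the scale ending at 3 on either side. The top rows are pale to dark blue in the day 9 wood columns, and the bottom rows are red there.

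Over all members the wood and non-woody cultures differed in a balanced way. On day 9, 48 of 120 tested members were higher on wood (40%) and 44 lower (36.7%), against 37.4% and 34.1% of all genes tested, so the shares lay near the background. On day 16, 38 were higher and 39 lower, 31.7% and 32.5% against 29.7% and 30.0%. With library size as the only scaling, which moved the median of all genes by 0.28 on day 9 and 0.48 on day 16, the splits became 62 and 33, then 80 and 14. The 10584 genes tested then split 5381 and 2455 on day 9 and 7036 and 1136 on day 16. By day, 22 members were higher on wood on both days (18.3%, against 18.6% of all genes tested) and 26 lower on both (21.7%, against 20%). Another 6 were higher on day 9 and lower on day 16 (5%, against 4.67%), 4 lower and then higher (3.33%, against 3.37%), and 9 were called on neither day (7.5%, against 15.4%). The 4 that turned from lower to higher included DICSQDRAFT_176855. Among members at 10 RPKM or more whose libraries did not overlap, and outside the genes described so far, the excess on day 16 wood was led by DICSQDRAFT_32352 (1.79, SE 0.17, adjusted p = 9.77e-08), DICSQDRAFT_76970, cathepsin A by its KEGG name (1.67, SE 0.08, adjusted p = 3.24e-11), and DICSQDRAFT_105491, a carboxypeptidase by KEGG (1.65, SE 0.07, adjusted p = 3.4e-12). DICSQDRAFT_109801, with no KEGG name, followed (1.21, SE 0.14, adjusted p = 1.4e-06). Among genes lower on day 16 wood, the cardiolipin-specific phospholipase by KEGG, DICSQDRAFT_154142, was at -0.95 (SE 0.07, adjusted p = 2.17e-09) and the carboxypeptidase D DICSQDRAFT_139517 at -0.93 (SE 0.10, adjusted p = 8.49e-07).

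**Figure D4:**
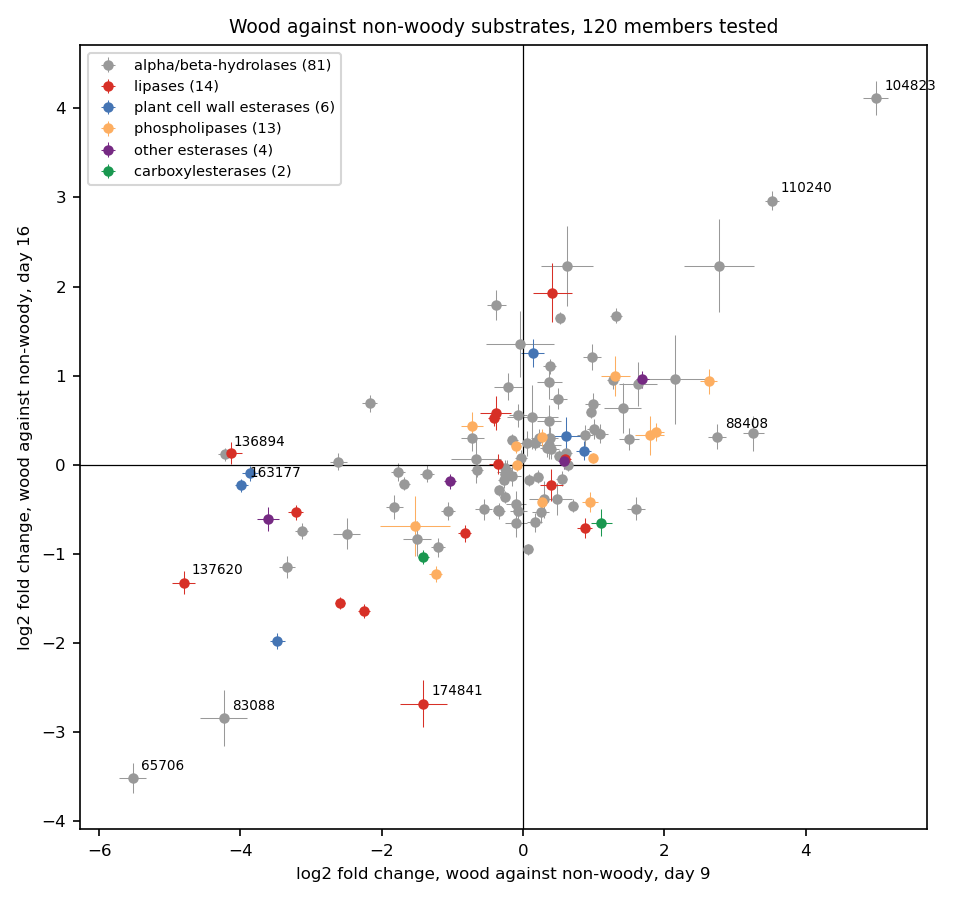
Log2 fold change of wood against non-woody substrates on day 9 (horizontal) and on day 16 (vertical) for the 120 tested members, coloured by class, with standard errors as bars; some points carry their locus tag number. Genes such as DICSQDRAFT_136894 and DICSQDRAFT_163177 lie far to the left but near 0 on the vertical axis, while DICSQDRAFT_104823 and DICSQDRAFT_110240 lie high in both.

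Spruce and aspen gave fewer differences between members. On day 9, 13 members were higher on spruce and 17 lower, 10.8% and 14.2% against 8.26% and 13.2% of all genes. On day 16 the counts were 17 and 18, 14.2% and 15% against 11.5% and 12%. With library size alone the splits were 35 and 11 on day 9, where it moved the median of all genes by 0.21, and 18 and 12 on day 16. The 10584 genes tested then split 2780 and 731 on day 9 and 1595 and 855 on day 16. The members with a KEGG carboxypeptidase name leaned to aspen on day 9: 0 of 10 were higher and 7 lower on spruce, or 2 and 6 with library size alone. DICSQDRAFT_108110, a carboxypeptidase D, was measured at 19.1 and 33.7 RPKM on spruce and 51.4 and 106 on aspen (-1.81, SE 0.35, adjusted p = 0.00612). DICSQDRAFT_135376, another, was at 33.9 and 40.9 and 54.04 and 63.6 (-0.87, SE 0.12, adjusted p = 0.000108). A fit of only the 4 spruce and aspen libraries of day 9 called 4 members where the fit of all groups called 30, and DICSQDRAFT_108110 did not pass there (adjusted p = 0.235). On the spruce side the alpha/beta-hydrolase DICSQDRAFT_79845 was at 0.77 (SE 0.14, adjusted p = 0.000981). DICSQDRAFT_152558, DICSQDRAFT_137620, DICSQDRAFT_181747 and DICSQDRAFT_75554 were called with log2 fold changes of 0.54 to 1.07, and those calls were lost in the fit of the 4 libraries alone (adjusted p = 0.109, 0.244, 0.16 and 0.125). Leaving out spruce replicate 1 took the value of DICSQDRAFT_137620 to 0.21 (adjusted p = 0.434). Leaving out aspen replicate 2 took that of DICSQDRAFT_181747 to 0.37 (adjusted p = 0.197).

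On day 16 the sharpest member difference between the woods was that of DICSQDRAFT_83088, at -2.22 (SE 0.44, adjusted p = 0.00677), which rests on aspen libraries of 78.7 and 237 RPKM and was lost without spruce replicate 1 (adjusted p = 0.0563) and in a fit of the day 16 wood libraries alone (adjusted p = 0.227). DICSQDRAFT_164545, an alpha/beta-hydrolase with no KEGG name, had tighter values, 30.6 and 21.03 RPKM on spruce and 79.6 and 86.3 on aspen (-1.77, SE 0.19, adjusted p = 1.97e-05). Among members with a mean of at least 10 RPKM on spruce, the spruce side was led by DICSQDRAFT_104823 and DICSQDRAFT_110240, given above, and by DICSQDRAFT_49593. The last is an acetylcholinesterase by KEGG, a name taken from animals whose role in a fungus is not implied. It was at 124 and 157 RPKM on spruce and 67.96 and 71.5 on aspen (0.92, SE 0.12, adjusted p = 5.83e-05). Of alpha/beta-hydrolases with no KEGG name, DICSQDRAFT_182368 was higher on spruce at 0.76 (SE 0.12, adjusted p = 0.000247). DICSQDRAFT_151952 was lower at -1.05 (SE 0.19, adjusted p = 0.000797). DICSQDRAFT_109801 was higher at 0.68 (SE 0.17, adjusted p = 0.00731), a call lost without aspen replicate 1 or spruce replicate 2 (adjusted p = 0.0509 and 0.0804). The count of 35 members dropped to 20 without aspen replicate 2 and to 18 without spruce replicate 2 of day 16.

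Wheat bran and cotton seed hulls differed in 21 members higher on bran and 29 lower on day 9, 17.5% and 24.2% against 15.2% and 18.5% of all genes, and in 25 and 37 on day 16, 20.8% and 30.8% against 13% and 18.3%. Library size alone, which moved the median of all genes by 0.23 and 0.47, gave 33 and 21, then 61 and 18. The 10584 genes tested then split 3347 and 933 on day 9 and 5849 and 625 on day 16. DICSQDRAFT_164545 had the largest excess on bran over hulls among the members on day 16, at 53.9 and 58.6 RPKM on day 16 bran and 5.94 and 5.63 on hulls (2.81, SE 0.23, adjusted p = 5.23e-07), and on day 9 at 11.02 and 11.004 and 4.29 and 3.41 (1.28, SE 0.28, adjusted p = 0.00289). On the hulls side stood DICSQDRAFT_135376, at 25.8 and 21.7 RPKM on bran and 99.3 and 104 on hulls on day 9 (-2.33, SE 0.13, adjusted p = 1.6e-09) and still lower on bran on day 16 (-1.46, SE 0.13, adjusted p = 1.87e-07). DICSQDRAFT_59964, an esterase or lipase by KEGG, did not differ past the threshold on day 9 (-0.20, SE 0.14, adjusted p = 0.302) but was 17.6 and 13.7 RPKM on bran and 55.8 and 54.6 on hulls on day 16 (-2.29, SE 0.14, adjusted p = 4.1e-09). On day 9 the bran side also held DICSQDRAFT_136491, at 1.69 (SE 0.14, adjusted p = 1.09e-07), DICSQDRAFT_76970, at 1.40 (SE 0.12, adjusted p = 2.69e-07), and DICSQDRAFT_166902, at 1.19 (SE 0.10, adjusted p = 1.22e-07), all described as alpha/beta-hydrolases. The hulls side held the triacylglycerol lipase DICSQDRAFT_95190, at -1.46 (SE 0.16, adjusted p = 8.98e-06). The cell wall esterase DICSQDRAFT_157086 was lower on bran on both days, at -1.45 and -1.77. DICSQDRAFT_165008, a triacylglycerol lipase by KEGG, was higher on day 16, at 1.16 (SE 0.19, adjusted p = 0.000217). Of 14 tested members that KEGG calls an esterase or lipase, 0 were higher and 7 lower on bran on day 9, and 0 and 8 on day 16. With library size alone these were 0 and 4, then 2 and 6.

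As with all genes, more members were called between the days on wood than on the other substrates. From day 9 to day 16, 39 members rose and 32 fell on spruce (32.5% and 26.7% against 23.6% and 27.0% of all genes), and 41 rose and 39 fell on aspen (34.2% and 32.5% against 31.5% and 32.1%). On wheat bran 27 rose and 15 fell (22.5% and 12.5% against 9.13% and 8.16%), and on cotton seed hulls 33 rose and 12 fell (27.5% and 10% against 15.7% and 12.7%). With library size alone, which moved the median of all genes by -0.25 there, cotton seed hulls gave 21 rising and 32 falling. Of the 10584 genes tested, 760 then rose and 3024 fell on cotton seed hulls. The wheat bran count of 42 went to 23 without day 9 replicate 2. Among lipases 8 of 14 rose and 3 fell on spruce, 7 and 4 on aspen, 6 and 1 with wheat bran and 6 and 2 with cotton seed hulls. With library size alone the counts on cotton seed hulls were 4 and 2.

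A few abundant members fell with time on the non-woody substrates. DICSQDRAFT_49593 was measured on day 9 at 75.1 and 60.6 RPKM with spruce, 118 and 137 with aspen, 602 and 577 with wheat bran and 789 and 757 with cotton seed hulls. By day 16 it stood at 124 and 157 RPKM with spruce, 67.96 and 71.5 with aspen, 220.5 and 241 with wheat bran and 61.7 and 60.3 with cotton seed hulls. It fell by 3.41 on the log2 scale on cotton seed hulls, by 1.34 on wheat bran and by 1.01 on aspen, and rose by 1.03 on spruce, each past the threshold. DICSQDRAFT_153416, a triacylglycerol lipase by KEGG, went from 106 and 102 to 27.1 and 26.9 RPKM on wheat bran (-1.93, SE 0.13, adjusted p = 5.76e-08) and from 40.9 and 39.4 to 9.72 and 6.29 on cotton seed hulls (-2.08, SE 0.16, adjusted p = 7.29e-08). The carboxypeptidase DICSQDRAFT_99992 fell on both, from 84.98 to 20.4 RPKM on wheat bran and from 49.99 to 14.3 on cotton seed hulls. The carboxypeptidase D DICSQDRAFT_181585 fell on cotton seed hulls at -2.03 (SE 0.14, adjusted p = 3.76e-08). Of the 10 members with a carboxypeptidase name, 0 rose and 5 fell on wheat bran (0% and 50%, against 9.13% and 8.16% of all genes tested) and 2 rose and 5 fell on cotton seed hulls (20% and 50%, against 15.7% and 12.7%). Scaled by library size alone, these were 0 and 5, then 1 and 6. The 10584 genes tested then gave 921 rising and 889 falling on wheat bran and 760 and 3024 on cotton seed hulls. Rising on both was DICSQDRAFT_181747, a microsomal epoxide hydrolase by KEGG, at 2.09 (SE 0.16, adjusted p = 2.61e-07) on wheat bran and 1.58 (SE 0.16, adjusted p = 2.41e-06) on cotton seed hulls.

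The differences between day effects were tested directly. Wood and non-woody substrates differed in 40 members with a larger log2 day effect on wood and 38 with a smaller one, 33.3% and 31.7% against 25.1% and 27.7% of all genes. With library size alone the members gave 51 and 24, against 3849 and 1998 of the 10584 genes tested. The pair DICSQDRAFT_136894 and DICSQDRAFT_106562 led the first side and DICSQDRAFT_86378 and DICSQDRAFT_88408 the second. Spruce and aspen differed in 9 and 14 members, 7.5% and 11.7% against 10.8% and 8.22%. With library size alone they gave 7 and 23, against 812 and 1417 of the 10584 genes tested. DICSQDRAFT_104823 fell on aspen and rose on spruce, a difference of 2.65 (SE 0.23, adjusted p = 2.43e-06). DICSQDRAFT_164545 rose more on aspen, at -2.62 (SE 0.33, adjusted p = 0.000105). Between wheat bran and cotton seed hulls 11 members had the larger day effect on bran and 7 the smaller, 9.17% and 5.83% against 4.29% and 5.1%. With library size alone the counts were 20 and 4, against 1358 and 270 of the 10584 genes tested. DICSQDRAFT_59964 fell on wheat bran and rose on cotton seed hulls, at -2.09 (SE 0.20, adjusted p = 6.19e-06). The smallest count here, without day 16 cotton seed hulls replicate 1, was 10 in place of 18. For spruce against aspen, leaving out day 9 spruce replicate 2 gave 37 in place of 23.

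**Figure D5:**
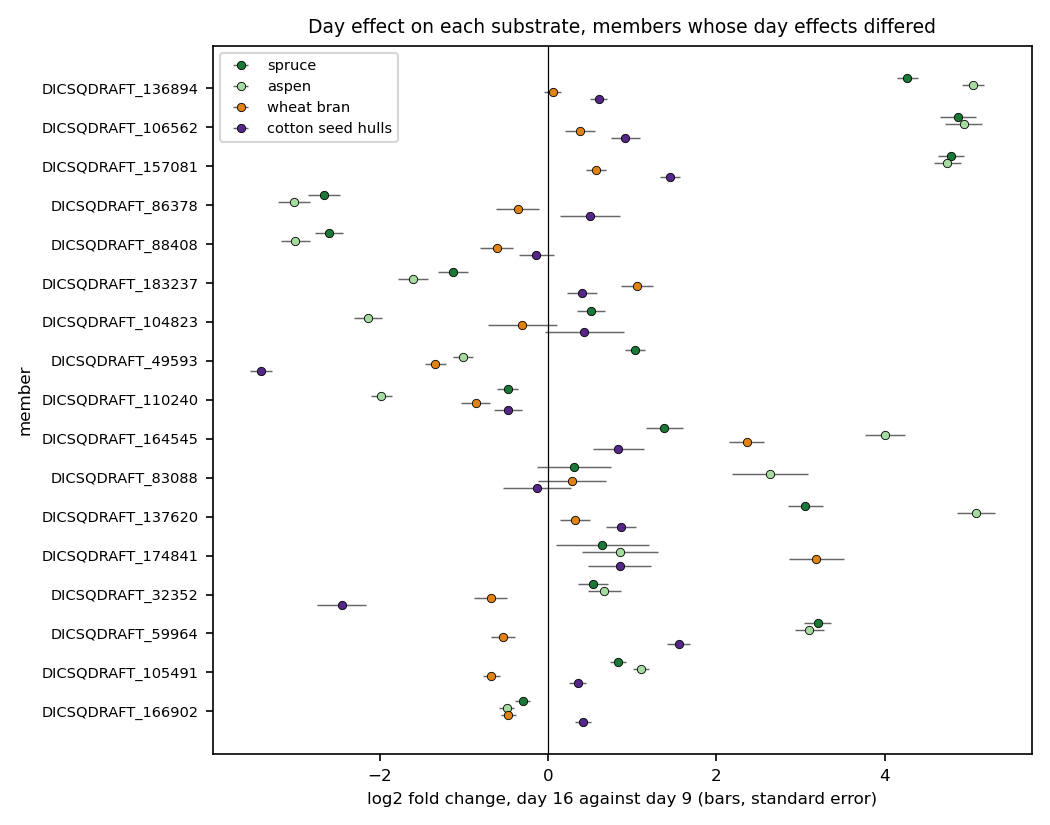
Log2 fold change of day 16 against day 9 (horizontal, bars are standard errors) on each of the 4 substrates for the 17 members with the largest tested differences between day effects. DICSQDRAFT_136894, DICSQDRAFT_106562 and DICSQDRAFT_157081 rise by more than 4 on both woods and by less than 2 on bran and hulls.

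Neighbouring members differed widely in their likeness. The RefSeq gene order placed 10 pairs of members directly side by side, 7 of them with both genes tested, and the Pearson correlation of log2(RPKM + 1) over 16 libraries in the 10 ran from -0.505 to 0.767. DICSQDRAFT_172133 and DICSQDRAFT_156325 gave the lowest value: the first, a triacylglycerol lipase by KEGG, never exceeded a group mean of 6.97 RPKM, while its neighbour rose on every substrate. DICSQDRAFT_127653 and the carotenoid ester lipase precursor DICSQDRAFT_107371 gave the highest value, both at under 5 RPKM. DICSQDRAFT_136925, called esterase 1, lies beside DICSQDRAFT_136926, which was among the members with the narrowest range, at 26.2 to 29.99 RPKM over the 8 group means. DICSQDRAFT_45770, beside DICSQDRAFT_142470, the S-formylglutathione hydrolase by KEGG, was nearly as even, at 21.3 to 26.98. These correlations are descriptions over libraries that share substrate and depth.

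Over the 6 substrate and 4 day comparisons, 117 of 120 members were called at least once (97.5%, against 93.2% of all genes tested) and 21 in 8 or more (17.5%, against 7.44%). The 3 members never called, which does not show that they stayed level, were DICSQDRAFT_154918, with group means of 6.86 to 11.7 RPKM, DICSQDRAFT_82155, with 7.31 to 12.1, and DICSQDRAFT_102620, with 0.906 to 3.40, all alpha/beta-hydrolases by description and chosen for mention after their values were seen. The genes that would use the products of fat breakdown moved in both directions. A list of 21 genes was collected by names of fatty acid oxidation. Such genes break fatty acids down to acetyl-CoA, but the list includes succinate-CoA and acetoacetate-CoA ligases. On wood on day 9, 10 of the 21 were higher and 9 lower, against 37.4% and 34.1% of all genes tested. On day 16 the counts were 10 and 9, against 29.7% and 30.0%. With library size alone they were 11 and 6, then 14 and 3, against 5381 and 2455, then 7036 and 1136 of the 10584 genes tested. On aspen 10 rose and 6 fell between the days, against 31.5% and 32.1% of all genes tested, and on spruce 10 and 5, against 23.6% and 27.0%. Each non-woody substrate gave 5 and 1, against 9.13% and 8.16% on wheat bran and 15.7% and 12.7% on cotton seed hulls. With library size alone cotton seed hulls gave 2 and 3, against 760 and 3024 of the 10584 genes tested.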

How the data were processed

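Gene expression was measured by RNA sequencing of mycelium-colonized substrate in 16 libraries, 8 groups of 2 given by substrate and sampling day. Per the file headers, the authors deposited for each library and gene a read count, an RPKM value, the gene model length and text from Blast and KEGG; which aligner, counter and build were used is not given in the sources used here. In all 16 files the deposited read counts sum to the total stated in the file, and the deposited RPKM equals that count divided by length and library total. The 127 members and the lists of related genes were chosen with earlier results of these data known, so no direction of theirs is independent evidence.

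Read counts were tested with edgeR 4.0.16 in R 4.3.3 (TMM scaling, filterByExpr with a minimum count of 10 and a minimum total of 15, 8 group means, robust quasi-likelihood fit with 8 residual degrees of freedom, common biological coefficient of variation 0.0982), two-sided, with Benjamini-Hochberg adjustment over 10584 genes; 826 genes were removed by the filter. The 13 contrasts were wood against non-woody substrates, the 2 woods and the 2 non-woody substrates against each other on each day, day 16 against day 9 on each substrate, and 3 differences of day effects. The wood value is the mean of its 2 groups minus the mean of the 2 non-woody groups on the log2 scale. RPKM values were used for levels and for a limma 3.58.1 alternative on log2(RPKM + 1). Other alternatives were DESeq2 1.42.0, other scalings, no filter, a fit of the compared groups alone, a replicate block and leaving out each library. The analysis script was tested on simulated data with known changes.

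Named were all plant cell wall esterases, the 12 members with the highest group mean, those with the largest fold changes past the threshold (at least 10 RPKM on the higher side and no overlap between libraries; 8 per direction for wood, 5 for the other contrasts), the 3 per direction with the largest differences of day effects at 10 RPKM or more in some group, and direct genome neighbours, the last given in full only for some pairs; genes outside this rule are marked in the text. Gene order comes from RefSeq, assembly Dichomitus squalens v1.0, in which all 127 members matched by locus tag (11371 of 11410 genes). Classes follow words of the description; the grouping by KEGG name was chosen after the annotation was seen. Related genes were collected by words of their description for fatty acid oxidation, xylan and pectin backbone enzymes, the glyoxylate cycle, glycerol use and lipid synthesis. Reads of near-identical copies or overlapping genes could be split by the authors' counting, which is not described, and strand use is not stated. Protein and promoter sequences were not used here.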

Additional observations from a re-analysis of the deposited data

Results flagged for a closer look

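In all, 18 differences between day effects drew attention because the interaction itself passed the threshold in edgeR's quasi-likelihood test over all genes; they are the largest per direction for each pair of substrates, so their selection used these same values. Between wood and non-woody substrates, the log2 day effect was larger on wood for DICSQDRAFT_136894 by 4.34 (SE 0.11, adjusted p = 6.1e-14), for DICSQDRAFT_106562 by 4.26 (SE 0.19, adjusted p = 2.09e-09) and for DICSQDRAFT_157081 by 3.76 (SE 0.14, adjusted p = 2.99e-12). All 3 rose on both woods, by 4.79 and 4.75 in the case of DICSQDRAFT_157081 against 0.57 with wheat bran and 1.44 with cotton seed hulls. It was smaller on wood for DICSQDRAFT_86378, at -2.91 (SE 0.27, adjusted p = 1.34e-07), for DICSQDRAFT_88408, at -2.43 (SE 0.19, adjusted p = 4.15e-08), and for DICSQDRAFT_183237, at -2.10 (SE 0.18, adjusted p = 1.04e-06), the last of which fell on both woods and rose on wheat bran by 1.06.

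Between spruce and aspen the 3 largest in each direction were as follows. The day effect was larger on spruce for DICSQDRAFT_104823, at 2.65 (SE 0.23, adjusted p = 2.43e-06), for DICSQDRAFT_49593, at 2.04 (SE 0.18, adjusted p = 1.15e-06), and for DICSQDRAFT_110240, at 1.50 (SE 0.18, adjusted p = 2.36e-05). DICSQDRAFT_49593 rose on spruce by 1.03 and fell by 1.01 on aspen. It was larger on aspen for DICSQDRAFT_164545, at -2.62 (SE 0.33, adjusted p = 0.000105), for DICSQDRAFT_83088, at -2.33 (SE 0.62, adjusted p = 0.0326), and for the extracellular triacylglycerol lipase DICSQDRAFT_137620, at -2.02 (SE 0.29, adjusted p = 0.000522). The call for DICSQDRAFT_83088 was lost when any 1 of 6 of the 8 spruce and aspen libraries was left out (adjusted p from 0.0527 to 0.0995) and in a fit of the spruce and aspen libraries alone (adjusted p = 0.167).

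Between wheat bran and cotton seed hulls the 3 largest in each direction again included DICSQDRAFT_49593. The day effect was larger on wheat bran for the lipase DICSQDRAFT_174841, at 2.34 (SE 0.51, adjusted p = 0.0106), for DICSQDRAFT_49593, at 2.07 (SE 0.17, adjusted p = 1.85e-06), and for DICSQDRAFT_32352, at 1.77 (SE 0.36, adjusted p = 0.00481). It was larger on cotton seed hulls for DICSQDRAFT_59964, at -2.09 (SE 0.20, adjusted p = 6.19e-06), for DICSQDRAFT_105491, at -1.02 (SE 0.14, adjusted p = 0.000217), and for DICSQDRAFT_166902, at -0.89 (SE 0.14, adjusted p = 0.000478). The log2 day effects of the last were -0.47 with wheat bran and 0.42 with cotton seed hulls. The call for DICSQDRAFT_174841, a gene under 10 RPKM outside day 16 wheat bran, was lost without cotton seed hulls replicate 1 of either day or wheat bran replicate 2 of day 9 (adjusted p from 0.0533 to 0.0947).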

How the results depend on the processing

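Of 130 fold changes of named genes under 1808 alternatives, 1771 kept their direction and their side of the threshold, 37 in 13 fold changes kept the direction and no longer passed, and 0 reversed. Of 184 alternatives for the 13 counts of members called, 175 stayed within 1.5 times. Spruce against aspen on day 9 went from 30 to 46 members with library size alone and to 4 in a fit of only the groups compared, which has fewer residual degrees of freedom. The same kind of fit took the day effect of spruce minus aspen from 23 to 14 and that of wheat bran minus cotton seed hulls from 18 to 43. Leaving out 1 library gave 18 to 29 members for spruce against aspen on day 16 (35 with all libraries, 18 without spruce day 16 replicate 2), 23 to 30 for the day effect on wheat bran (42; 23 without day 9 replicate 2), 17 to 37 for the difference spruce minus aspen (23; 37 without day 9 spruce replicate 2) and 10 to 15 for wheat bran minus cotton seed hulls (18; 10 without day 16 cotton seed hulls replicate 1); the lone library left in a group is then assumed to vary like the others. The cause was not tested. With the replicate number as a block, wood against non-woody substrates called 91 members on day 9 and 80 on day 16, against 92 and 77 without it, and the 13 counts ran from 22 to 91. The labels do not say that the numbers pair cultures: deviations of same-numbered libraries correlated between -0.0576 and 0.358 over 28 pairs of groups, 1 of them over 0.1, and 12 of 16 libraries correlated best with their own number. The 2 libraries of a group deviate from their mean in equal and opposite amounts, so both always give the same answer. The 16 are therefore not separate checks. The block ended 1 named call, that of DICSQDRAFT_137620 for spruce against aspen on day 9 (adjusted p = 0.053). With 2 libraries per group, members under about 10 RPKM and differences inside the day 9 wood spread are the least certain.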

Other observations

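Genes of lipid synthesis and of the neighbouring routes of carbon use, collected by words of their description, were measured in the same libraries. Of 8 lipid synthesis genes, among them a fatty acid synthase, a delta 9-fatty acid desaturase and a phospholipid:diacylglycerol acyltransferase but also a sterol C22-desaturase of the cytochrome P450 family, 4 were higher and 1 lower on wood on day 9, and 5 fell and 1 rose between the days on spruce and 5 fell and 0 rose on aspen. The 1 lower on day 9 wood was the fatty acid synthase (-0.80, adjusted p = 0.00177). The delta 9-fatty acid desaturase did not pass (0.02, adjusted p = 0.932). Among the 4 higher were the acyltransferase (1.64) and the sterol C22-desaturase (2.31). Of all genes tested, 37.4% were higher and 34.1% lower on wood on day 9. Between the days 27.0% fell and 23.6% rose on spruce, and 32.1% fell and 31.5% rose on aspen. With library size alone the day 9 counts of the 8 genes were 5 and 1. Their changes with time were then 5 falling and 1 rising on spruce and 4 falling and 1 rising on aspen. Of the 10584 genes tested, 5381 were then higher and 2455 lower on day 9 wood. Between the days 2743 fell and 2540 rose on spruce, and 2796 fell and 4020 rose on aspen. Of 4 genes found by the names of glyoxylate cycle enzymes, which let a fungus grow on the acetyl-CoA from fatty acids, 2 were higher and 2 lower on wood on day 9; the list includes a 2-isopropylmalate synthase, an enzyme of leucine synthesis, by its name alone. Of 3 glycerol genes, 1 was higher and 1 lower on wood on day 9.

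The 7 members left out of the tests for low counts were DICSQDRAFT_145052, DICSQDRAFT_66399, DICSQDRAFT_167233, DICSQDRAFT_144765, DICSQDRAFT_66393, DICSQDRAFT_171684 and DICSQDRAFT_159757, with no group mean above 2.97 RPKM. Both DICSQDRAFT_66399 and DICSQDRAFT_66393 are partial FabD/lysophospholipase-like proteins. DICSQDRAFT_167233 and DICSQDRAFT_144765, each an esterase or lipase by KEGG, lie side by side in the RefSeq gene order.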
